A study of Danio rerio with 14 samples.

Results

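Melatonin is made from tryptophan in a short chain of enzymes, and 9 genes of that chain were followed here over the day in the zebrafish pineal gland: aanat2, aanat1, tph1a, tph1b, tph2, ddc, gch2, qdpra and qdprb.1. Every probe set that the platform annotation ties to only 1 of these symbols was taken, whatever its signal. This gave 16 probe sets of the 15502 on the array that are not controls, for 9 of the 8793 genes named there. This rule itself used no measured value, but the genes were picked with earlier results of these data known.

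The glands came from adult Tg(aanat2:EGFP)Y8 zebrafish, 3 to 6 months old and of both sexes, raised at 28 °C with 12 h of light and 12 h of darkness each day. During the day of collection the fish stayed in that cycle (LD, 7 arrays) or were kept in constant darkness (DD, 7 arrays). Each array was hybridised with RNA from a pool of 12 glands, and most times have a single pool per condition. The spread behind the p-values therefore mixes differences between pools with differences between times that the models leave out. All fish in both conditions carried the transgene, in which the promoter of aanat2, one of the genes described here, drives the fluorescent protein that guided the dissection. Times are zeitgeber times (ZT), in hours after lights on. Collections ran every 4 h, from ZT2 to ZT22. Each condition has an extra pool named ZT2b, of unstated meaning, which was used as ZT2. How arrays were batched is not given in the sources used here, so batch and light condition cannot be told apart.

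In the chain, a tryptophan hydroxylase (tph) adds a hydroxyl group to tryptophan, and the aromatic amino acid decarboxylase (ddc) turns the product into serotonin. Arylalkylamine N-acetyltransferase (aanat) then acetylates serotonin, and a methyltransferase (asmt) completes melatonin. The hydroxylases need the cofactor tetrahydrobiopterin, whose synthesis starts with GTP cyclohydrolase (gch) and which dihydropteridine reductase (qdpr) recycles. Melatonin is a hormone of the night, and acetylation is the step best known for its day-night swing. Teleost fish carry aanat1, best known from the retina, and aanat2, best known from the pineal gland.

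The tissue carried the markers of pineal photoreceptors. Signals of exorh, the opsin of the gland, were 9419 to 14442 over the 14 arrays, and those of crx, a photoreceptor transcription factor, 884 to 2101. Of 8 listed photoreceptor markers, 6 had a named probe set and all 6 were bright enough to be tested. The 6 include aanat2 itself. Measured markers of other cells were also bright enough: 7 of 8 for neurons, 7 of 7 for glia and 4 of 4 for blood. For habenula, a brain region, it was 2 of 3, and for serotonin and dopamine neurons 1 of 4. These counts therefore do not gauge how pure the tissue was. The DD array of ZT10 stood apart: its mean correlation with the other DD arrays across probe sets was 0.938, against 0.963 to 0.965 for the other 6. On that array the poly-A spikes, foreign RNAs added to check amplification, had a geometric mean signal of 1620, against 90.0 to 236.7 on the other 13. Its ratio of the 3' to the 5' probe set of GAPDH, a gauge of shortened RNA, was 16.7, against 5.09 to 12.9 on the others. Where leaving out this array changes a call of the 9 genes or of another pathway gene, the value without it is given with that call; the marker genes were not refitted without it.

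The values are MAS5 signals, and comparisons were made on the scale of log2(signal + 14.9). Probe sets with a mean signal above 29.179 over the 14 arrays were tested, 9299 in all. Of the 16 probe sets of the melatonin genes, 8 passed this filter, and they covered 5 of the 9 genes: aanat2, tph1a, tph2, ddc and qdprb.1. Models were fitted with limma across the 9299 probe sets, p-values were adjusted by the Benjamini-Hochberg method, and a result was called below 0.05. In these bulk samples, fewer pineal cells in a pool and less RNA per cell cannot be told apart.

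The transcripts of 2 of the 5 tested genes were higher at night: aanat2, the acetyltransferase, and tph1a, the hydroxylase of the step that opens the chain. Night (ZT14, ZT18 and ZT22) was compared with day (ZT2, ZT2b, ZT6 and ZT10) over both conditions. Of the 8 probe sets, 3 were called, all higher at night, against a background of 0.796% of all tested probe sets (74, with 28 higher and 46 lower at night). The median night minus day difference was 0.10 over the 8 probe sets and 0.01 over all tested ones. The decarboxylase ddc, the reductase qdprb.1 and the second hydroxylase, tph2, were not called in this comparison.

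In LD, the probe set of aanat2 (Dr.8142.1.S1_at) had signals of 12350 at ZT14, 11301 at ZT18 and 12482 at ZT22 at night, against 3193 at ZT2, 3587 at ZT2b, 7072 at ZT6 and 3781 at ZT10 by day. Every night pool was above every day pool, and ZT6 was the highest of the day. The share of all tested probe sets that separated night from day in this way was not counted. No result is read from such a separation, here or for the other genes below. In DD, aanat2 had 6588 at ZT14, 9780 at ZT18 and 10143 at ZT22 in the subjective night, against 2906 at ZT2, 7488 at ZT2b, 2179 at ZT6 and 1017 at ZT10. Here night and day overlapped, through 1 pool: ZT2b was 2.58 times ZT2 in DD, while the same pair differed 1.12-fold in LD. The lowest signal of the gene, 1017, was on the DD array of ZT10.

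Averaged over pools, aanat2 was at 12044 ± 647 at night and 4408 ± 1792 by day in LD (SD, n = 3 and 4). In DD the night pools averaged 8837 ± 1956 and the day pools 3397 ± 2836. The night minus day difference over both conditions was 1.62 ± 0.31 on the log2 scale (SE), a fold of 3.07, with an adjusted p of 0.0213 in limma. Within a single condition it was not called, at 1.52 ± 0.45 in LD (adjusted p 0.146) and 1.71 ± 0.45 in DD (adjusted p 0.652). The difference between those, LD minus DD, was -0.19 ± 0.64 with an adjusted p of 0.994. Without the LD pool of ZT2, ZT14 or ZT18 or the DD pool of ZT18, or with a robust variance prior, the adjusted p of the night minus day difference lay between 0.0504 and 0.0631, with an estimate of at least 1.56. Over all single pools left out, the estimate ran from 1.40 to 1.84. It was lowest without the DD pool of ZT10, where the call held.

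**Figure D1:**
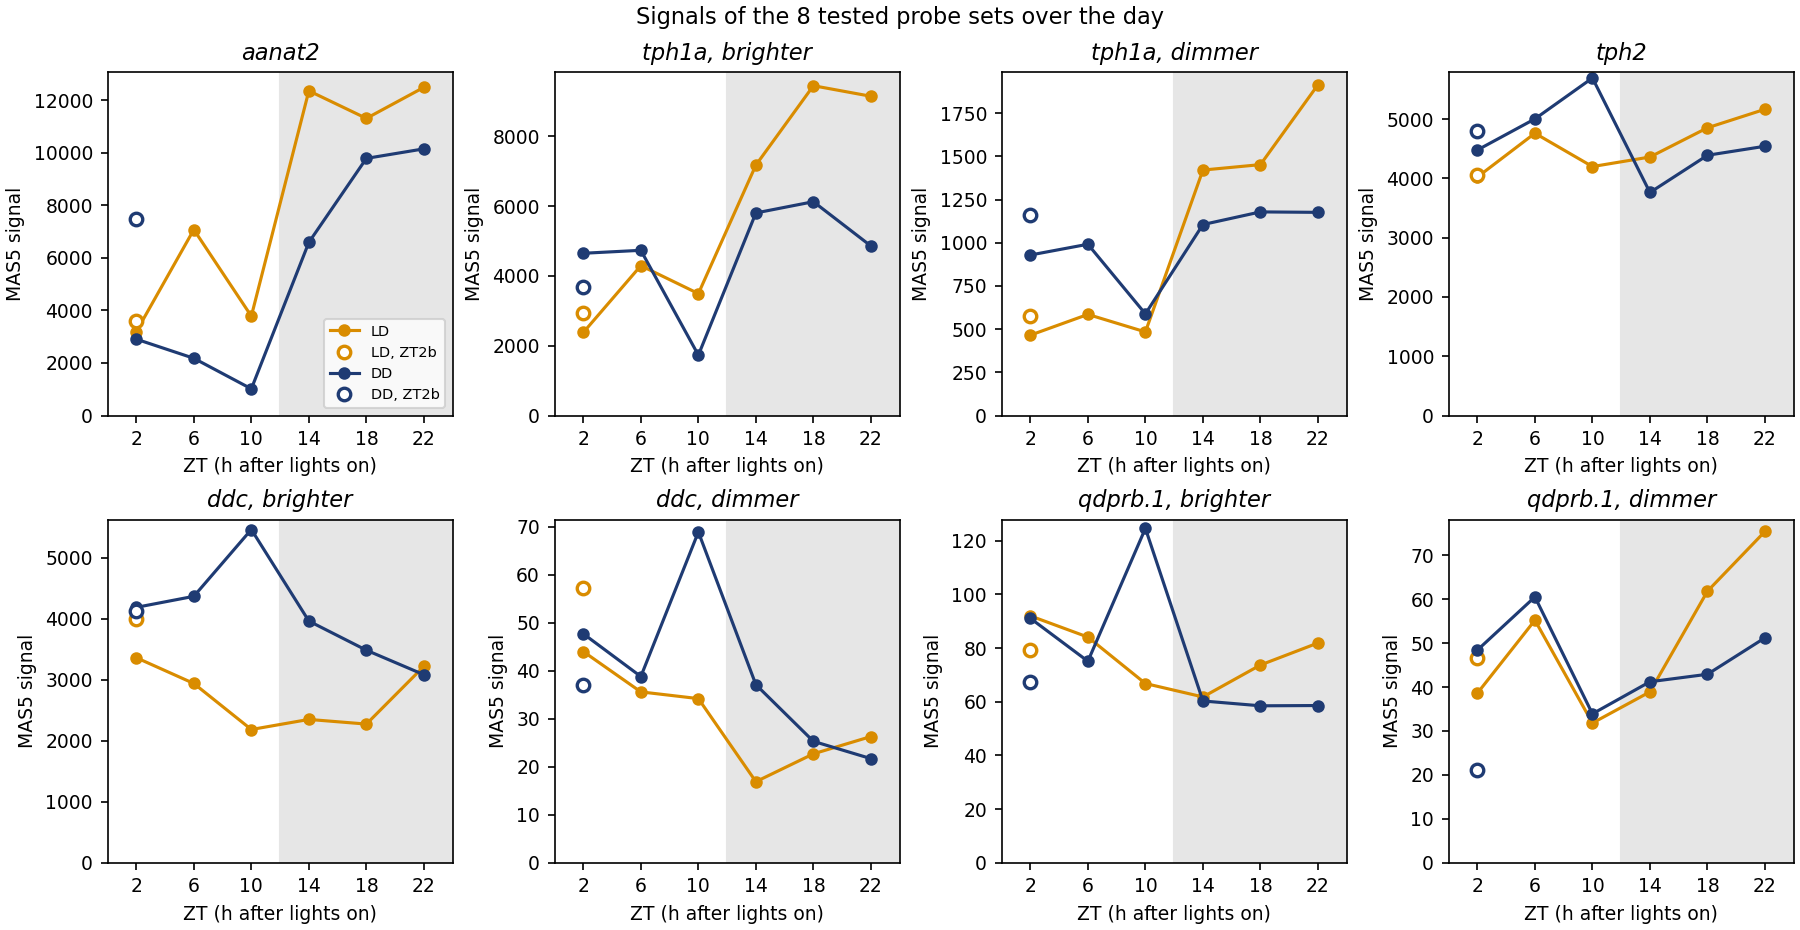
MAS5 signal (linear axis from 0) of the 8 tested probe sets against time of day in LD (orange) and DD (dark blue), 1 pool of 12 glands per point; open circles are the ZT2b pools, drawn at ZT2, and the shaded hours are dark in both conditions. In LD, the night points of aanat2 and of both tph1a probe sets lie above their day points, and those of the dimmer ddc probe set below. Over both conditions, tph2 stays between 3762 and 5694.

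The hydroxylase tph1a was measured by 2 probe sets, and both were higher at night. In LD, the dimmer one (Dr.15967.1.A1_at) had 1421, 1452 and 1914 at ZT14, ZT18 and ZT22, against 466, 575, 585 and 484 at ZT2, ZT2b, ZT6 and ZT10. The LD pools thus split into 2 levels with no overlap and a ratio of night to day means of 3.03. In DD, this probe set had 1105, 1179 and 1176 at ZT14, ZT18 and ZT22, against 929, 1163, 992 and 589 at ZT2, ZT2b, ZT6 and ZT10. Apart from ZT10, the DD pools lay within 929 to 1179, at day and night alike, and night and day overlapped.

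The brighter tph1a probe set (Dr.19931.1.S1_at) had in LD 7178, 9451 and 9149 at ZT14, ZT18 and ZT22, against 2382, 2934, 4296 and 3495 at ZT2, ZT2b, ZT6 and ZT10. In DD it had 5806, 6128 and 4859 at ZT14, ZT18 and ZT22, against 4650, 3680, 4735 and 1732 at ZT2, ZT2b, ZT6 and ZT10. Night lay above day without overlap in both conditions, but in DD the gap between the lowest night and the highest day pool was narrow, 4859 against 4735. The ratio of night to day means was 2.62 in LD and 1.51 in DD.

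Over both conditions, night minus day was 0.96 ± 0.20 on the log2 scale for the dimmer tph1a probe set (adjusted p 0.0335 in limma) and 1.05 ± 0.21 for the brighter tph1a probe set (adjusted p 0.029). Both calls were fragile. Leaving out 1 pool ended the call for the dimmer tph1a probe set in 7 of 14 cases, with adjusted p-values up to 0.121, and for the brighter tph1a probe set in 6 of 14, up to 0.111. Those pools were the LD ones of ZT2, ZT2b, ZT14, ZT18 and ZT22 and the DD one of ZT18 for both, and that of ZT6 in LD for the dimmer probe set. Median centring also ended the call of the dimmer tph1a probe set (0.0514), and leaving out both ZT2b pools that of the brighter tph1a probe set (0.0789). The estimates stayed between 0.83 and 1.15 without any single pool.

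The day-night difference of tph1a was larger in LD than in DD as an estimate. For the dimmer tph1a probe set, night minus day was 1.56 ± 0.20 in LD (adjusted p 0.00112 in limma) and 0.37 ± 0.20 in DD (0.946). For the brighter tph1a probe set it was 1.41 ± 0.28 in LD (adjusted p 0.0327) and 0.69 ± 0.28 in DD (0.927). The test of that difference gave 1.20 ± 0.29 with an adjusted p of 0.495 (unadjusted 0.000746) for the first and 0.72 ± 0.40 with an adjusted p of 0.994 for the second, both in limma. No probe set of the array was called in this comparison: 0 of 9299 (0%) with limma, and 440 at an unadjusted p under 0.05. A dependence of the tph1a rhythm on the light cycle was therefore not shown at this number of pools. For night minus day within LD or within DD, the share of all tested probe sets called was not counted. Those values were not followed with pools left out or other settings, so how far the LD calls of tph1a hold was not tested.

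**Figure D2:**
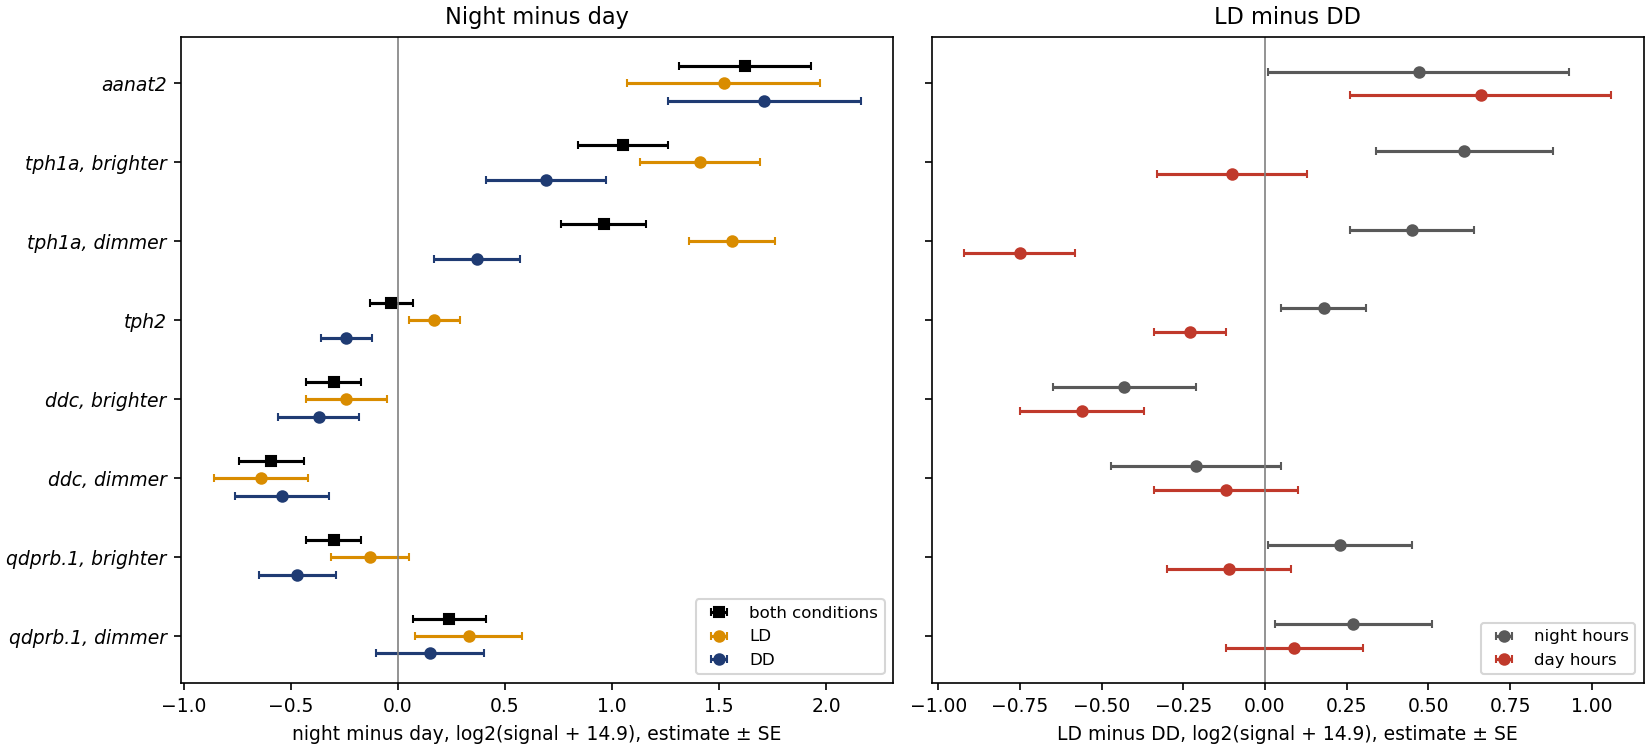
Estimates ± SE from limma on the log2(signal + 14.9) scale for the 8 tested probe sets: on the left night minus day over both conditions (black squares), in LD (orange) and in DD (dark blue), on the right LD minus DD at night hours (grey) and at day hours (red). The 3 probe sets of aanat2 and tph1a lie at 0.96 or above for night minus day over both conditions, and the dimmer tph1a probe set has LD minus DD values of opposite sign at night (0.45) and by day (-0.75). The signs are also opposite for the brighter tph1a probe set, tph2 and the brighter qdprb.1 probe set.

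A cosine wave of 24 h was also fitted. Over both conditions the wave of aanat2 was called, as 1 of the 8 probe sets, where 4.86% of all tested probe sets were. Its distance from trough to peak was 2.33 ± 0.49 on the log2 scale, its fitted peak was at ZT 19.1, and its adjusted p was 0.024 in limma. A robust variance prior (0.0972), a test over the 6 times in place of a wave (0.0838) and leaving out the LD pool of ZT22 or the DD pool of ZT18 or ZT22 (0.055 to 0.0626) each ended this call. The waves of tph1a were of 1.34 ± 0.33 with a peak at ZT 18.9 (the dimmer tph1a probe set, adjusted p 0.06) and 1.38 ± 0.36 with a peak at ZT 18.4 (the brighter tph1a probe set, adjusted p 0.081), neither called. Both were called without the DD pool of ZT6 (0.0232 and 0.0195), and the first also without the DD pool of ZT18 (0.049). Other single pools left out took their adjusted p-values up to 0.17 and 0.242.

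Within LD alone, 1 of the 8 probe sets was called, the dimmer tph1a probe set, where 4.1% of all tested probe sets were. Its wave was of 2.09 ± 0.38 with a peak at ZT 18.2 and an adjusted p of 0.0138 in limma. The call was lost without the LD pool of ZT14 (0.0535) and without both ZT2b pools (0.0612). For aanat2 the LD wave was of 1.82 ± 0.59 with an adjusted p of 0.207. Without the LD pool of ZT6, the high day value of aanat2, its wave was of 2.74 with an adjusted p of 0.0487. Other single pools left out took the adjusted p of this aanat2 wave up to 0.461. The brighter tph1a probe set had an LD wave of 1.85 ± 0.48 with an adjusted p of 0.0923. It was called without the DD pool of ZT10 (0.0151), which alters only the shared estimate of the spread, or the LD pool of ZT6 (0.0331). Other single pools left out took its adjusted p up to 0.292.

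Within DD alone, 0 of the 8 probe sets were called in limma, where 0.645% of all tested probe sets were. An unadjusted p under 0.05 was found for 3 of the 8, and for 1016 of all 9299 tested probe sets. The wave of aanat2 was of 3.15 ± 0.62 in DD with a peak at ZT 20.1 and an adjusted p of 0.0702 in limma. Without the LD pool of ZT6, which alters only the shared estimate of the spread, the same wave had an adjusted p of 0.0395. Across all single pools left out, its size ran from 2.37 to 3.49 and its adjusted p from 0.0395 to 0.311. The waves of tph1a in DD were of 0.73 ± 0.39 (adjusted p 0.635) and 1.07 ± 0.50 (adjusted p 0.562). The difference between the LD and DD waves was called for none of the 8 probe sets and for 0 of 9299 (0%) in limma, with 662 at an unadjusted p under 0.05. A robust variance prior called 2 of the 9299.

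LD and DD were also set against each other at matched times. Over all 7 collections, 1 of the 8 probe sets was called, ddc, lower in LD. The background was high: 20.6% of all tested probe sets were called (1915, with 932 higher and 983 lower in LD). The median LD minus DD difference was -0.01 both over the 8 probe sets and over all tested ones.

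The decarboxylase ddc was measured by a bright and a dim probe set. The bright one (Dr.26319.1.A1_at) had in LD 3361, 3997, 2939, 2184, 2350, 2273 and 3220 at ZT2, ZT2b, ZT6, ZT10, ZT14, ZT18 and ZT22. In DD it had 4186, 4130, 4366, 5461, 3961, 3484 and 3082 at the same times. LD was lower at 6 of the 7 collections, ZT22 being the exception, though the ranges of the 2 conditions overlapped. At the day collections alone they did not, with 2184 to 3997 in LD and 4130 to 5461 in DD. The share of all tested probe sets that separated LD from DD by day was not counted. The widest gap was at ZT10, where LD was 0.40 times DD, on the DD array that stood apart.

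LD minus DD of this ddc probe set was -0.51 ± 0.14 on the log2 scale, a fold of 0.704, with an adjusted p of 0.0245 in limma. Leaving out either pool of ZT6, ZT14 or ZT18 gave adjusted p-values of 0.0542 to 0.065, with estimates between -0.50 and -0.47. Over all single pools left out, the estimate ran from -0.60 to -0.37. It was smallest in size without either pool of ZT10, where the call held. By day hours the difference was -0.56 ± 0.19 (adjusted p 0.0873) and at night hours -0.43 ± 0.22 (adjusted p 0.301), neither called. The dim probe set (Dr.861.1.S1_at), with signals of 16.9 to 57.3 in LD and 21.7 to 68.9 in DD, gave -0.16 ± 0.16 with an adjusted p of 0.521. Night minus day over both conditions was negative for both ddc probe sets without a call, at -0.30 ± 0.13 for the bright one (adjusted p 0.364 in limma) and -0.59 ± 0.15 for the dim one (adjusted p 0.0855). Night lay below day without overlap for the bright one in DD, at 3082 to 3961 against 4130 to 5461. The dim one did so in LD, at 16.9 to 26.3 against 34.2 to 57.3, and neither did so in the other condition. Within LD the wave of the bright ddc probe set was of 0.77 ± 0.18 with a peak at ZT 1.46 and an adjusted p of 0.0557 in limma. It was called without the DD pool of ZT10 (0.0202) or of ZT6 (0.0361), without both ZT10 pools (0.0498), after quantile normalisation (0.048) and with the stricter filter on the mean (0.0411). Leaving out a DD pool alters only the shared estimate of the spread for this LD wave. Other single pools left out took its adjusted p up to 0.245.

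Some markers of other cells were called between LD and DD beside ddc, in shares to be read against the 20.6% of all tested probe sets. All 4 measured blood markers were called lower in LD, and their summed signal was 7085 to 12018 (median 7561) in LD, against 9110 to 18214 (median 14071) in DD. Of the habenula markers, genes of the brain region next to the gland, 3 of 8 had a probe set and 2 were tested, of which kctd12.1 was called lower in LD; the sum was 167.5 to 254.5 in LD, against 295.0 to 551.1 in DD. Of 7 tested glial markers 1 was called higher and 2 lower in LD, and the sums overlapped, with 5592 to 8232 in LD and 6595 to 8868 in DD. The neuron markers had 2 of 7 higher in LD, with overlapping sums of 6378 to 7652 in LD and 4903 to 6768 in DD. Among pineal photoreceptor markers 2 of 6 were called higher in LD, otx5 and rcvrn3. Their sums, which include aanat2, overlapped, with 28216 to 43834 in LD and 25507 to 35389 in DD. The part of these markers in the ddc difference was not tested. Markers of serotonin and dopamine neurons, which also use ddc, were measured for 4 of 8 listed genes, and all but tph2 itself were below the filter, among them th with at most 26.6 and dbh with at most 25.

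In the hours when the lights were on in LD and off in DD (ZT2, ZT2b, ZT6 and ZT10), 1 of the 8 probe sets was called, again lower in LD, where 9.23% of all tested ones were. It was the dimmer tph1a probe set, with 466, 575, 585 and 484 in LD, against 929, 1163, 992 and 589 in DD, and no overlap. LD minus DD by day was -0.75 ± 0.17 on the log2 scale, a fold of 0.595, with an adjusted p of 0.02 in limma. The call was lost without both ZT2b pools (-0.66, adjusted p 0.141) and without the LD pool of ZT2, ZT2b or ZT6 or the DD pool of ZT2b or ZT6 (0.0539 to 0.0759). The other tph1a probe set was at -0.10 ± 0.23 (adjusted p 0.811), with LD below DD at ZT2, ZT2b and ZT6 but 2.02 times DD at ZT10. Without the DD pool of ZT10 it was at -0.48, with an adjusted p of 0.0866.

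At night hours, dark in both conditions, 0 of the 8 probe sets were called in limma, where 2.93% of all tested ones were. An unadjusted p under 0.05 was found for 2 of the 8, and for 1917 of all 9299 tested probe sets. Both tph1a probe sets, aanat2 and the brighter qdprb.1 probe set were higher in LD at all 3 night collections, with no overlap between the conditions. The same held for tph2, but with overlap. The share of all tested probe sets that separated in this way was not counted, so no result is read from it. LD minus DD at night was 0.45 ± 0.19 for the dimmer tph1a probe set (adjusted p 0.218), 0.61 ± 0.27 for the brighter tph1a probe set (adjusted p 0.226) and 0.47 ± 0.46 for aanat2 (adjusted p 0.613). The brighter tph1a probe set was called without the DD or the LD pool of ZT10 (adjusted p 0.046 and 0.0462), which are day pools and alter only the shared estimate of the spread. Other single pools left out took its adjusted p up to 0.606.

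For aanat2, LD was above DD at 6 of 7 collections, 3.25 times at ZT6 and 3.72 times at ZT10, and ZT2b was the exception with 0.48 times. LD minus DD over all collections was 0.58 ± 0.29 (adjusted p 0.168 in limma), and by day hours 0.66 ± 0.40 (adjusted p 0.304). These values turned on single pools, in both directions. Without the DD pool of ZT2b, LD minus DD was 0.83 over all collections (adjusted p 0.0228) and 1.16 by day (adjusted p 0.0432), both called. Without either pool of ZT10 it was 0.36 over all collections (adjusted p 0.371) and 0.26 by day (0.727). Without either pool of ZT6 it was 0.39 over all collections and 0.32 by day.

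**Figure D3:**
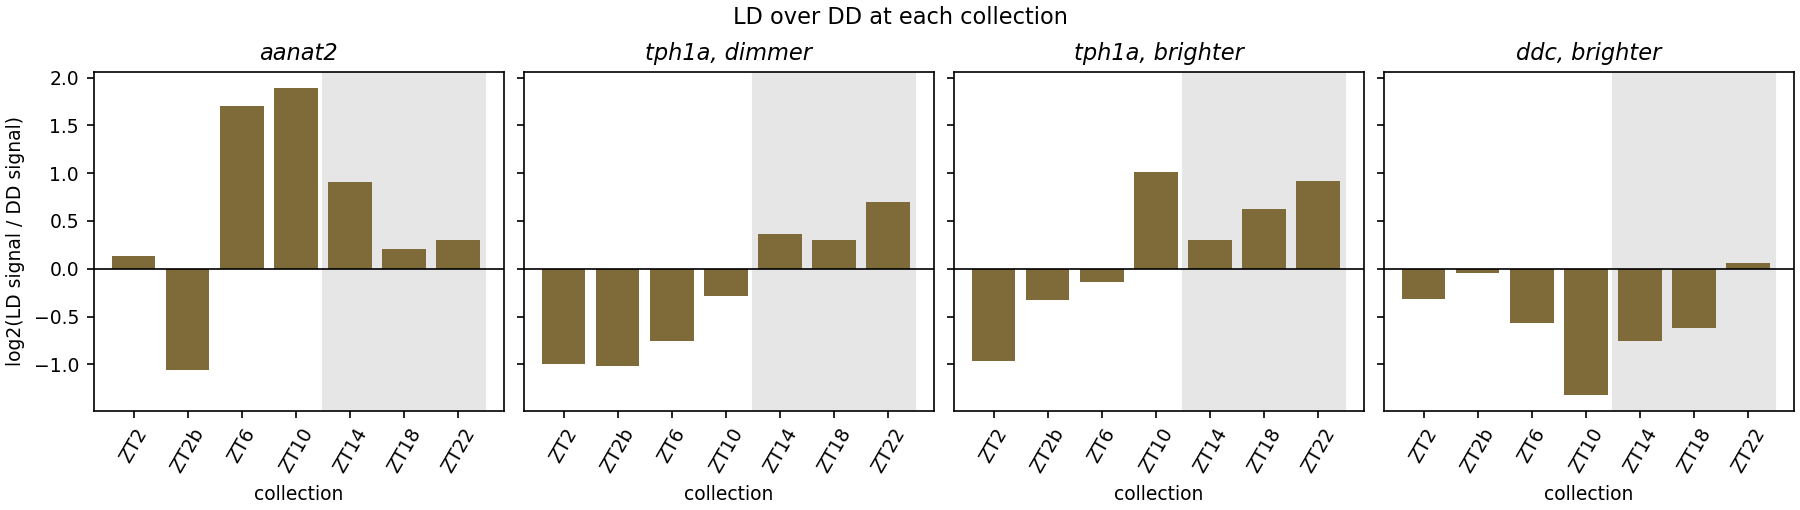
Ratio of the LD to the DD signal at each collection, on a log2 axis, for aanat2, both tph1a probe sets and the bright ddc probe set; each bar compares 1 LD pool with 1 DD pool and the shaded collections are dark in both conditions. The bars of tph1a lie below 0 at ZT2, ZT2b and ZT6 and above 0 at ZT14, ZT18 and ZT22, those of ddc lie below 0 at all collections but ZT22, and for aanat2 ZT2b alone is below 0.

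The second hydroxylase, tph2, the form best known from serotonin neurons of the brain, was bright and varied little. In LD its signals were 4023, 4051, 4762, 4199, 4361, 4854 and 5166 at ZT2, ZT2b, ZT6, ZT10, ZT14, ZT18 and ZT22. In DD they were 4479, 4801, 5004, 5694, 3762, 4390 and 4542 at the same times. The highest was 1.28 times the lowest in LD and 1.51 times in DD, against 3.91 and 9.97 for aanat2. Night minus day was -0.03 ± 0.10 on the log2 scale (adjusted p 0.936 in limma). Its approximate 95% interval, taken from the SE, was -0.23 to 0.16, which lies below the estimates of aanat2 and tph1a. LD minus DD was -0.05 ± 0.10 (adjusted p 0.735). It was -0.23 ± 0.11 by day hours (adjusted p 0.198) and 0.18 ± 0.13 at night hours (adjusted p 0.454), neither called in limma. LD lay below DD at every day collection and above it at every night collection. The night minus day difference, LD minus DD, was 0.41 ± 0.18 with an adjusted p of 0.994 (unadjusted 0.0346). The symbol tph2 has also been used for the gene now called tph1b, and the probe set was assigned through its Entrez gene ID.

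The reductase qdprb.1, which restores the cofactor of the hydroxylases, was measured by 2 dim probe sets and gave no call. The brighter (Dr.7795.2.A1_at) had 61.8 to 92.0 (median 79.4) in LD and 58.5 to 124.6 (median 67.2) in DD, with its highest value on the DD array of ZT10. The dimmer (Dr.7795.1.S1_at) had 31.8 to 75.4 (median 46.6) in LD and 21.2 to 60.5 (median 42.9) in DD. Their night minus day estimates had opposite signs, -0.30 ± 0.13 (adjusted p 0.369 in limma) and 0.24 ± 0.17. In DD the 3 night values of the brighter qdprb.1 probe set, 58.5 to 60.3, lay below its 4 day values, 67.2 to 124.6, without overlap, while in LD night and day overlapped for both.

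The other 8 probe sets, of aanat1, tph1b, gch2 and qdpra, had mean signals below the filter and were not tested. The hydroxylase tph1b had 1.4 to 17.9 over its 2 probe sets and all 14 arrays. The cyclohydrolase gch2, also known in zebrafish for the pteridine pigments of the skin, had 1.4 to 39.5, and 1 of its 28 values was above the filter value. The reductase qdpra had 0.3 to 32.9, also with 1 value above it. Detection calls were not used here, so these signals are reported as dim, not as absent.

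The second acetyltransferase, aanat1, was dim on both of its probe sets, in contrast to aanat2. DrAffx.2.8.S1_at had 5.1 to 23.5 (median 19.0) in LD and 2.2 to 12.7 (median 8.8) in DD, with LD higher at 6 of 7 collections. Dr.11176.1.A1_s_at, whose suffix marks probes that can match more than 1 transcript, had 1.9 to 10.6 (median 2.2) in LD and 1.5 to 18.5 (median 10.9) in DD, with LD higher at 1 of 7. The pair thus ran in opposite directions between the conditions.

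**Figure D4:**
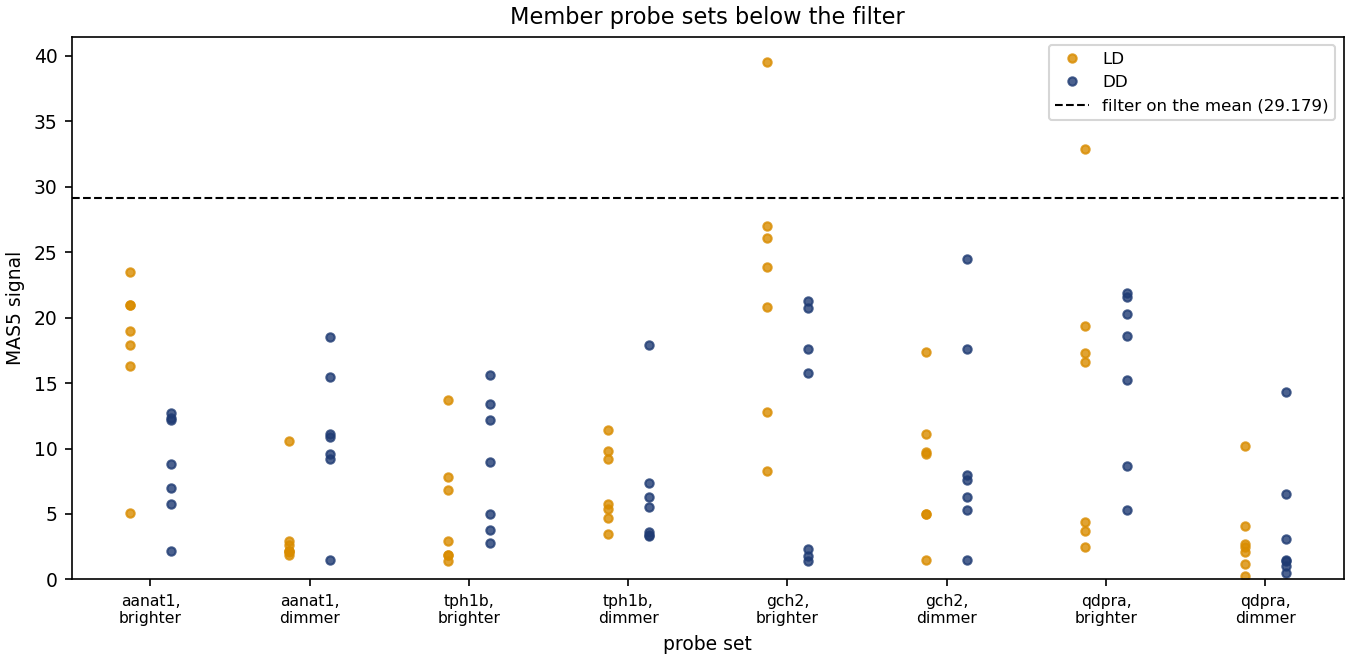
MAS5 signal (linear axis from 0) of the 8 probe sets that were not tested, with 7 LD pools (orange, left of each position) and 7 DD pools (dark blue, right), and the filter on the mean of 29.179 as a dashed line. Apart from 1 LD value each of gch2 (39.5) and qdpra (32.9), all points lie below the line.

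The likeness of other genes to aanat2 and tph1a was described by Pearson's r over the 14 arrays, with 1 probe set per gene and 6115 other genes ranked. The 6 most like aanat2 were lhfpl3 (0.888), rpl38 (0.88), rps29 (0.88), hnrnpdl (0.876), septin4a (0.864) and guk1b (0.848). tph1a was at rank 16 with r = 0.809, and r between these 2 genes was 0.964 over the LD pools, 0.737 over the DD pools and 0.705 over the 13 arrays without that of ZT10 in DD. The 6 most like tph1a were her15.2 (0.897), id1 (0.876), ckmt2a (0.865), sh3bgrl3 (0.863), rpl36a (0.85) and snx3 (0.849). tph2 had an r with aanat2 of 0.819 in LD and -0.697 in DD, and ddc had -0.399 in LD and -0.902 in DD. Over all 14 arrays tph2 had -0.202 and ddc -0.636. Without the DD array of ZT10 they had 0.263 and -0.471. Without that array, the 6 genes named for aanat2 had 0.782 (septin4a) to 0.928 (lhfpl3) with it. The 6 named for tph1a then had 0.767 (rpl36a) to 0.88 (id1) with tph1a. These values share arrays, and the DD array of ZT10 was the lowest of all 14 for aanat2 and the highest for tph2 and ddc.

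Other genes around the chain were taken from a list of 70, of which 26 had a tested probe set. By night minus day, 0 of the 26 were called in limma, where 0.796% of all tested probe sets were. An unadjusted p under 0.05 was found for 3 of the 26, and for 1133 of all 9299 tested probe sets. In the wave over both conditions 2 of 26 were called, a share to be read against 4.86% of all. One was mat1a, which makes the methyl donor S-adenosylmethionine used in the final step, and the other gchfr, whose product holds back GTP cyclohydrolase. Signals of mat1a in LD were 136, 88.0, 25.7, 28.6, 21.6, 73.5 and 426 at ZT2, ZT2b, ZT6, ZT10, ZT14, ZT18 and ZT22. In DD they were 68.0, 132, 74.3, 43.2, 52.1, 57.7 and 171 at the same times. ZT22 was highest in both conditions. The wave of mat1a was of 2.19 ± 0.41 with a peak at ZT 22.6 and an adjusted p of 0.0107 in limma, and it stayed called in 24 of 24 alternatives. The wave of gchfr was of 0.75 ± 0.17 with a peak at ZT 23.2 (adjusted p 0.0294), called in 12 of 24 alternatives and lost without the DD array of ZT10 (0.0588).

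Between conditions, 8 of the 26 were called, 5 higher and 3 lower in LD, a share to be read against the 20.6% of all probe sets. 4 of the 8 belong to the 14-3-3 proteins, which make up 8 of the 26 tested genes. In mammals this family binds phosphorylated AANAT and shields it from breakdown. ywhah had 2185 to 2706 in LD and 1400 to 1573 in DD without overlap, a difference of 0.72 ± 0.09 (adjusted p 0.000426 in limma), and ywhae1 and ywhaqa were higher by 0.44 and 0.54, each called in 17 of 24 alternatives. ywhaz was lower, with a difference of -0.32 ± 0.11 (adjusted p 0.0477), a call kept in 5 of 24 alternatives and lost without the DD array of ZT10 (0.0629). mat2aa and mat2b, a catalytic and a regulatory subunit for S-adenosylmethionine synthesis, were higher by 0.42 and 0.54, called in 14 and 24 of 24 alternatives.

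The strongest fall among them was that of slc7a8a, a transporter of large neutral amino acids such as tryptophan. It had 63.6 to 198.8 (median 129.6) in LD and 174.5 to 408.3 (median 317.2) in DD, with LD lower at 6 of 7 collections and a difference of -1.23 ± 0.21 (adjusted p 0.00232 in limma). Another, dimmer probe set of slc7a8a was tested but is not reported here, and the same holds for ywhaqa, ywhae1 and mat2b. cremb, which encodes a cAMP-responsive transcription factor, was lower, with a difference of -1.10 ± 0.32 (adjusted p 0.0295). This call was kept in 12 of 23 alternatives and lost without the DD array of ZT10 (-0.89, adjusted p 0.0678). The cremb estimate ran from -1.69 with a pseudocount of 1 to -0.68 with the median as pseudocount. By day hours 6 of 26 were called, where 9.23% of all tested probe sets were. Among them were slc3a2b, the partner chain of such transporters (-0.43 ± 0.12, called in 8 of 24 alternatives), and prkar1aa, a regulatory subunit of protein kinase A (-0.72 ± 0.18, called in 16 of 24). Of the 6, the call of ywhah alone held without the DD array of ZT10, while the other 5 (slc3a2b, prkar1aa, slc7a8a, mat2b and cremb) had adjusted p-values of 0.0509 to 0.102. At night hours 2 of 26 were called, where 2.93% of all were. These were slc7a8a, lower (-1.42 ± 0.33, called in 14 of 24 alternatives, adjusted p up to 0.262), and ywhah, higher (0.71 ± 0.14, called in 17 of 24, up to 0.172). Some markers of blood, habenula, glia and neurons were called between the conditions, those of glia in both directions, as given above. Their part was not tested.

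**Figure D5:**
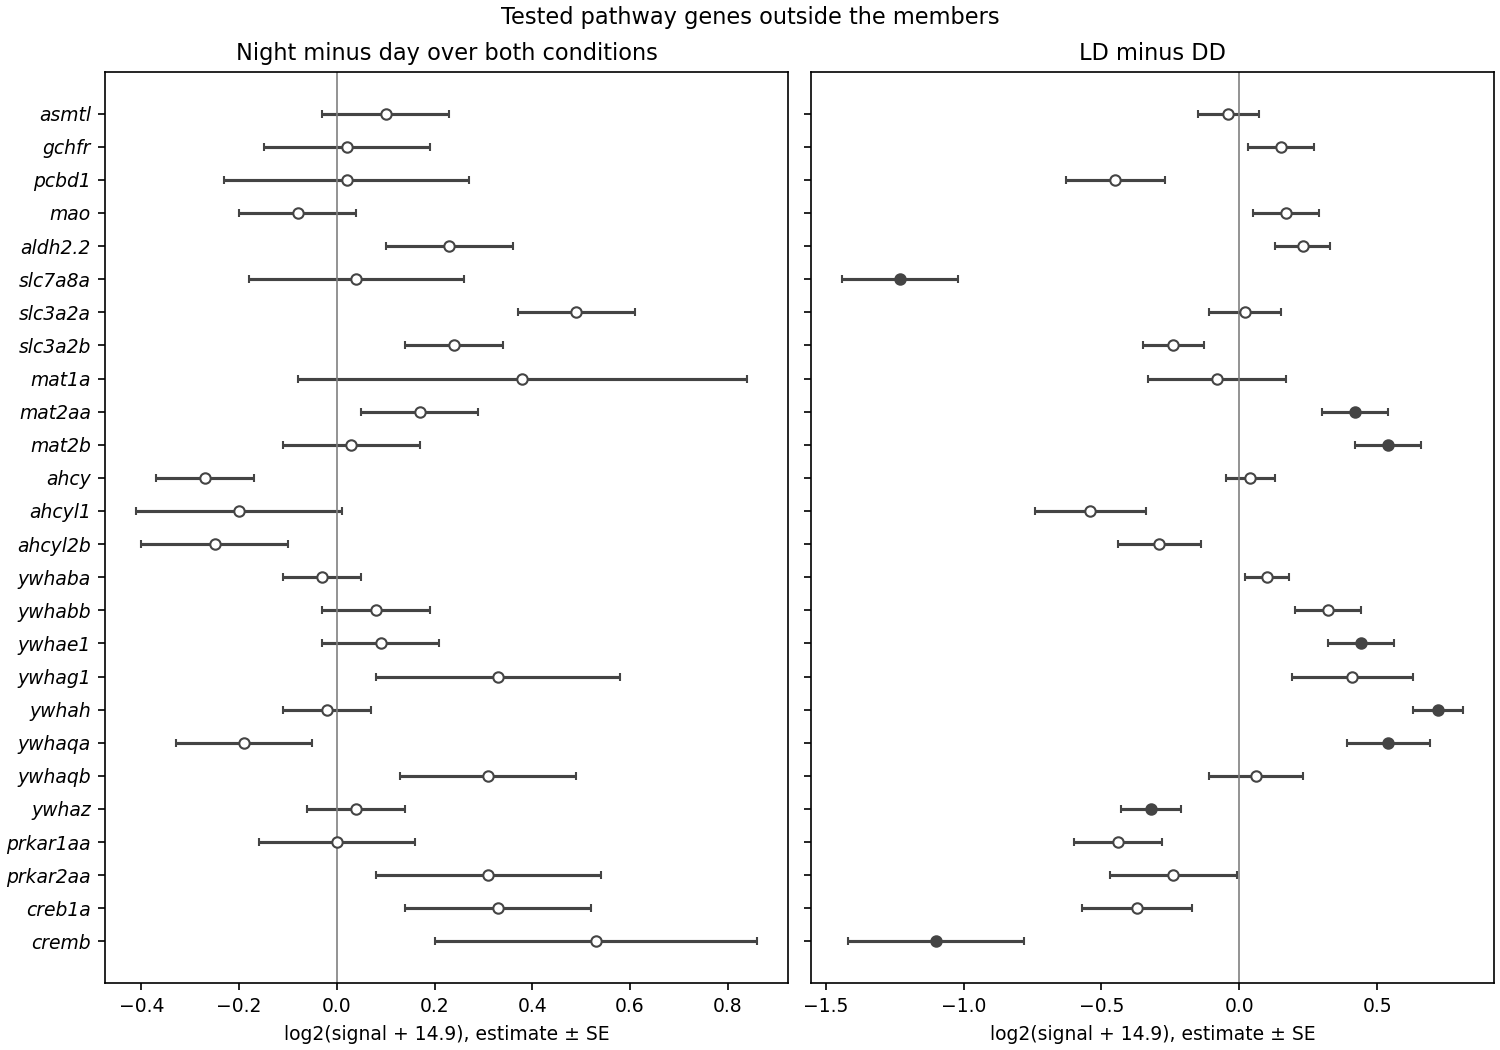
Estimates ± SE from limma on the log2(signal + 14.9) scale for the 26 tested pathway genes that are not among the 9, for night minus day over both conditions (left) and LD minus DD (right); filled points are called at an adjusted p below 0.05. No point is filled on the left, and 8 are filled on the right, 5 above and 3 below 0.

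Some steps of the pathway were not measured through named probe sets. asmt and asmt2, which would carry the final methylation, and gch1, a second GTP cyclohydrolase, were not analysed here. The brightest probe set of mao, the oxidase that removes serotonin, had 1260 to 1623 in LD and 1018 to 1657 in DD and gave no call. All probe sets of the measured melatonin receptors were below the filter, with single values up to 48.8.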

How the data were processed

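The deposited values are intensities: the authors made the MAS5 signal of each probe set from scanned Affymetrix arrays with GCOS and MAS5, per the submitters' processing notes. Their versions are not given in the sources used here. Per the labels' protocols, RNA of pooled glands went through 2 rounds of amplification, about 1800-fold. The mean signal without the outer 2% at each end was 150.04 to 150.05 on all 14 arrays, so the authors' scaling was kept. 1 probe set with an empty cell was left out. The values name no genome build, and no coordinates are given.

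Gene symbols came from the platform annotation, checked through Entrez gene IDs. 10795 probe sets had 1 symbol, 135 several and 4572 none, and only those with 1 were named. Of a gene outside the 9, the probe set of highest mean was used. Signals were used as log2(signal + 14.9), the 25th percentile of all values, which understates changes of dim ones. Probe sets averaging above 29.179, the 40th percentile, were tested with limma 3.58.1 (lmFit, eBayes with trend) in R 4.3.3, and p-values were adjusted by the Benjamini-Hochberg method. Light condition was a term in the night and wave models, where a wave had cosine and sine terms of 24 h. Its size, from trough to peak, cannot be below 0. LD minus DD had the time of collection as a block. The fits were tested on simulated data. Tables and figures were made with Python 3.11.15, pandas 2.3.3 and matplotlib 3.10.9.

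Alternatives were other pseudocounts and filters, median centring, quantile normalisation, a robust variance prior, the block, and leaving out ZT2b, ZT10 or single arrays. The text names all 9 genes, every listed pathway gene that was called, asmt, asmt2, gch1 and mao, and the 6 genes most like aanat2 and tph1a. Members and lists were chosen with earlier results of these data known. The number of arrays limits the precision.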

Additional observations from a re-analysis of the deposited data

Results flagged for a closer look

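A probe set of the 9 genes and a light condition formed a group, 32 in all. In 5 of these groups, 1 pool lay far from the other 6. Its gap to its neighbour, as a share of the range, was above Dixon's critical value for 7 samples. Gaps and ranges were taken on the log2 scale of the comparisons, while the signals in brackets are on the linear scale. Whether these flags hold on the linear scale was not tested. For 7 independent values of a single normal distribution, such a flag arises in about 1 of 20 groups. These pools are of different times and the groups share arrays, so that rate does not apply here and no excess is read. The DD pool of ZT10 was the lowest for both tph1a probe sets, with a gap of 0.656 of the range for the dimmer (589, next 929) and of 0.596 for the brighter (1732, next 3680). This is the array with the high poly-A spikes and the high GAPDH ratio given above, whose part was not tested. The other 3 flags were of dim probe sets below the filter. The LD pool of ZT2 was high for aanat1 on the dimmer probe set (0.861; signal 10.6, next 2.9). The LD pool of ZT18 was low for aanat1 on the brighter probe set (0.682; signal 5.1, next 16.3). The DD pool of ZT2 was high for tph1b on 1 of its probe sets (0.655; signal 17.9, next 7.4).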

How the results depend on the processing

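Of the alternatives run for single probe sets of the 9 genes, 1598 kept the direction and the side of the threshold, 39 lost a call, 19 gained one and 30 turned the sign of an estimate. Counts of called probe sets of the 9 genes changed as follows. The wave over both conditions had 1 call, 0 with a robust prior, 0 with the test over 6 times and 0 to 3 without single arrays. The LD wave had 1 call, 2 with the stricter filter, 2 after quantile normalisation, 0 without ZT2b, 3 without ZT10 (added after seeing the data) and 0 to 3 without single arrays. Without single arrays the DD wave had 0 to 1, night minus day 0 to 3, LD minus DD 0 to 2, its day hours 0 to 1 and its night hours 0 to 1. Without ZT2b, LD minus DD had 2 calls and its day hours 0, and without ZT10 its night hours had 1. Night minus day had 3 calls, and 2 with median centring, with a robust prior or without ZT2b. No other alternative run moved these counts. With collection as a random block, 3 calls remained in number for night minus day, and with no replicate block 1 for LD minus DD. Deviations of LD and DD pools of 1 collection correlated at -0.018 to 0.318, and not every one was over 0.1, so night minus day was reported without a block. LD minus DD has the time of collection as a block in the values reported, and leaving out either pool of a time with 1 pool per condition therefore drops that time.

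Calls over all 9299 probe sets ranged from 140 to 571 for the wave over both conditions (452 as reported), 155 to 598 in LD (381), 13 to 103 in DD (60) and 18 to 277 for night minus day (74). They ranged from 943 to 2106 for LD minus DD (1915), 83 to 880 by day (858, with 83 without ZT2b) and 0 to 602 at night (272, with 0 without either ZT18 array). The test of the night minus day difference between conditions called at most 1, and that of the waves at most 2.

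The estimates that turned sign were not called under any setting. Without ZT10, night minus day in LD minus DD was 0.21 for aanat2 and -0.12 for ddc (brighter probe set), LD minus DD was 0.01 for tph2, and by day it was 0.10 for ddc (dimmer probe set) and 0.12 for qdprb.1 (brighter probe set). Without ZT2b it was -0.14 by day for qdprb.1 (dimmer probe set), and night minus day in LD minus DD was 0.10 for ddc (dimmer probe set). Without single arrays, LD minus DD ran from -0.10 to 0.01 for tph2 and -0.02 to 0.17 for qdprb.1 (brighter probe set), and night minus day from -0.08 to 0.03 for tph2. By day hours LD minus DD ran from -0.48 to 0.07 for tph1a (brighter probe set), -0.24 to 0.10 for ddc (dimmer probe set), -0.11 to 0.22 and -0.22 to 0.12 for qdprb.1, and at night hours from -0.40 to 0.04 for ddc (dimmer probe set). Night minus day in LD minus DD ran from -0.69 to 0.26 for aanat2 and from -0.03 to 0.26 and -0.24 to 0.05 for ddc. The causes were not tested. A single pool per time and condition, and dim signals below the filter, limit what these arrays can show.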

Other observations

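The array carries a control probe set for EGFP, the reporter that the aanat2 promoter drives in these fish. It was looked at after the other results were known. In LD its signals were 43.9, 31.8 and 67.1 at ZT14, ZT18 and ZT22, against 36.5, 13.1, 22.3 and 39.9 at ZT2, ZT2b, ZT6 and ZT10. In DD they were 47.9, 48.0 and 62.8 at ZT14, ZT18 and ZT22, against 13.8, 23.9, 42.8 and 15 at ZT2, ZT2b, ZT6 and ZT10. Night and day overlapped in LD and did not in DD, and all values were dim. Night minus day was 0.71 on the log2 scale (0.56 in LD and 0.86 in DD), with p = 0.0114 in an exact two-sided permutation test within conditions over 1225 arrangements. That p is unadjusted, and the test treats pools of successive times as exchangeable. It cannot be set beside the adjusted p-values of the genes. The LD pool of ZT6 and the DD pool of ZT2b, the highest by day for aanat2, had 22.3 and 23.9 for EGFP, neither the highest of its 4 day pools.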
